A study of Mus musculus with 4 samples.

Results

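The series holds 4 cultures of C2C12 myotubes, sequenced as 2 culture pairs, an EPS pair and a clenbuterol pair, and the levels of every gene in the 2 pairs are compared here. C2C12 is a clonal mouse myoblast line whose cells fuse into multinucleate myotubes when serum is lowered. The EPS pair holds 1 library under EPS, an abbreviation read here as electrical pulse stimulation, a reading the labels leave unstated, and 1 library of its control. The clenbuterol pair holds 1 library of myotubes given clenbuterol, a drug that activates the beta2-adrenergic receptor and raises cyclic AMP, and 1 library of its control. All 4 libraries of the series are members, 2 in each pair, and each pair was chosen by the names under which the data were deposited. Of 45777 genes listed, 14213 had a TPM (a level corrected for transcript length and for depth) of 1 or more in some library and were compared.

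Per the labels, all 4 cultures were kept in DMEM with horse serum at 2% and antibiotics at 1%, RNA was extracted with ISOGEN, a phenol reagent, and stranded poly(A) libraries were made from 1 ug of RNA. The treatment field of all 4 libraries, controls included, gives 30 ng/ml clenbuterol. Titles and data names conflict in the EPS pair: under the title of the control the data are named EPS, and under the title EPS they are named EPSCtrl. The comparison of the pairs does not depend on which of the 2 readings is right, and the libraries are called here by the names of their data. A gene is called separated when both TPM values of one pair exceed both of the other. The 2 libraries of a pair differ in treatment and are not replicates, so the p-values below set the difference between pairs against the spread within pairs, and measure only the spread between these 4 samples. Culture, batch and the presence of a treatment in each pair cannot be told apart. A single value compared over 2 against 2 libraries cannot go below an exact two-sided permutation p of 0.333.

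Total estimated counts ran from 32640884 to 35597074 per library. Across genes, log2(TPM + 1) correlated with a Pearson r of 0.987 within the EPS pair and 0.991 within the clenbuterol pair, and of 0.979 to 0.982 between libraries of different pairs, where genes are not independent replicates. Within the EPS pair 278 genes lay at least 2-fold apart in TPM + 1 and within the clenbuterol pair 209, against 408 to 537 between libraries of different pairs. All 8 myotube markers checked were detected in every library, with summed TPM of 15952, 11586, 17491 and 18101. That order, the library named EPS, the library named EPSCtrl, the clenbuterol control and the clenbuterol library, is used for all values below. None of the markers of adipocytes, endothelial cells or chondrocytes reached a TPM of 1, and their summed TPM stayed at or below 0.774 in every library. Markers of other cells were partly detected: 2 of 5 osteoblast markers, 1 of 5 immune markers and 1 of 5 neural markers (Tubb3) reached it, with summed TPM of 26.4 to 29.1, 2.97 to 5.11 and 86.7 to 127. In bulk samples, fewer cells of a type and less RNA per cell cannot be told apart.

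Several programmes that cultured muscle cells are known for bear on what follows. When oxygen at the cell falls, the prolyl hydroxylases stop marking hypoxia-inducible factor (HIF) for degradation, and HIF then binds a short core motif and induces glycolytic enzymes, glucose transporters, carbonic anhydrases and mitophagy receptors. The immediate early genes are transcription factors and signalling regulators induced within minutes by calcium, growth factors or cyclic AMP, the last through CREB bound to cyclic AMP response elements. Txnip, an arrestin-like protein that binds thioredoxin and limits glucose uptake, is induced by the glucose-sensing Mondo family of factors. ATF4 is the factor that induces amino acid synthesis and transport when amino acids are short or the endoplasmic reticulum is stressed.

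The windows upstream of some genes with a wide gap between the pairs are shown first. They were picked for the short motifs of the factors in the background, and not by rank. Apln, Gpr35 and Ak4 had wider gaps than Car9, Bnip3 and Ankrd37, and their windows are not shown. Each is the 250 bases before a start site of the gene, 5′ to 3′ on the gene's strand, from RefSeq on GRCm38.p6, with the matches in capitals. For Bnip3 (chr7:138909507-138909756, minus strand), Car9 (chr4:43506776-43507025, plus strand), Ankrd37 (chr8:45999851-46000100, minus strand) and Ero1l (chr14:45318573-45318822, minus strand) the capitals mark the HIF core, searched as ACGTG or GCGTG on both strands with overlapping matches merged. For Txnip (chr3:96557707-96557956, plus strand) they mark CACGAG, a form of the half-site of the carbohydrate response element. For Nr4a1 (chr15:101266596-101266845, plus strand) they mark TGACG, the half-site of the cyclic AMP response element, which reads CGTCA on the other strand.
Bnip3: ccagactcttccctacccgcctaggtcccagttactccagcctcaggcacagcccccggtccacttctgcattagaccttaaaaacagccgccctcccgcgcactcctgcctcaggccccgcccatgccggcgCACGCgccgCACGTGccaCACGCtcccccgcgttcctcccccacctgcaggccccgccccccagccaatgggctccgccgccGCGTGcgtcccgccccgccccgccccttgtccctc
Car9: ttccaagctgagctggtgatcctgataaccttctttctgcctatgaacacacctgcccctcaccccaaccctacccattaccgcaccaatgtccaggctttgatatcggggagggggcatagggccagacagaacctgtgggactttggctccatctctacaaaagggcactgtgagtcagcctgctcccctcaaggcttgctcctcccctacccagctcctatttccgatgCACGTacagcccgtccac
Ankrd37: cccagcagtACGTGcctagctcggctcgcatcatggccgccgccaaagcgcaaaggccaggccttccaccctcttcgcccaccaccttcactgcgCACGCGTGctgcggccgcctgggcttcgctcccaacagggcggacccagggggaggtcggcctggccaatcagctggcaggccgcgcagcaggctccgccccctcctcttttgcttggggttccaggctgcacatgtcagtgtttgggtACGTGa
Ero1l: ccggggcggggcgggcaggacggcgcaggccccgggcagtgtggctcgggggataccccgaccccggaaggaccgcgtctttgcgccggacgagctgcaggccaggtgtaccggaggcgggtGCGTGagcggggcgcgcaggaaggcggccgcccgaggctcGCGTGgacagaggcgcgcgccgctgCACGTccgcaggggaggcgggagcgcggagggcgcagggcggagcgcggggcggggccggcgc
Txnip: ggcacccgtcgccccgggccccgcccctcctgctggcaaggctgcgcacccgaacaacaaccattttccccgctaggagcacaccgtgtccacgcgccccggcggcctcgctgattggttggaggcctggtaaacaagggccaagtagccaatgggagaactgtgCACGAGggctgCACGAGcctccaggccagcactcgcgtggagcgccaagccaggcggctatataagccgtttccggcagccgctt
Nr4a1: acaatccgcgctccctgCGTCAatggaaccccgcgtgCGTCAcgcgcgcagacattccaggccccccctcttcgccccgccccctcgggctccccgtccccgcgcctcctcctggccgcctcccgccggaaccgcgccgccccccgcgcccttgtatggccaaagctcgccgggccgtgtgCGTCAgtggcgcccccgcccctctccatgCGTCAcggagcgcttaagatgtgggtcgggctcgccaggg
The Bnip3 window held 4 separate places with the HIF core, the Ero1l and Ankrd37 windows 3 each and the Car9 window 1, which starts 18 bases before the start site. Among 10262 compared genes with a window, 56.4% held at least 1 such place, 9.02% at least 3 and 2.94% at least 4. Of the 19 hypoxia genes described below, 17 had a window, and 15 of these (88.2%) held the HIF core. This share describes genes chosen for a known response and is not a test of HIF in these libraries. Both CACGAG matches of Txnip lie close together, at 85 and 74 bases before the start site, and 0.419% of all windows held 2 or more. The Nr4a1 window had 4 places with the response element half-site, and 0.117% of all windows held 4 or more. This Nr4a1 start site is not the outermost one of the gene in the deposited table. A match is a description of the letters and not of binding.

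Most genes stood on one side or the other of the pair boundary. By the TPM rule 8499 genes (59.8%) were separated, 4935 (34.7%) with both EPS pair values higher and 3564 (25.1%) with both clenbuterol pair values higher. The median log2 difference over all genes, EPS pair minus clenbuterol pair, was 0.04 on the TPM + 1 scale, and 4147 genes had an unadjusted edgeR p under 0.05. Genes whose lowest TPM + 1 in the higher pair was at least 2 times the highest in the lower pair numbered 50 (0.352%) toward the EPS pair and 29 (0.204%) toward the clenbuterol pair. Of these 79 genes, 70 were protein coding. The quasi-likelihood test of edgeR, on estimated counts with pair as the factor and p adjusted over all genes, called 577 genes (4.06%) higher in the EPS pair and 565 (3.98%) higher in the clenbuterol pair at an adjusted p under 0.05. Of those 1142 calls, 1138 were also separated the same way in TPM, and 67 of the 79 genes with a 2-fold gap were called in the direction of their gap. The calls rest on few degrees of freedom, and their number also depended on which library was left out. It fell without either library of the clenbuterol pair and rose without either library of the EPS pair. These fits without 1 library have equal degrees of freedom and differ in which pair supplies the spread within a pair. The shares of all genes separated (34.7% and 25.1%) and called (4.06% and 3.98%) are the background for every list below.

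**Figure D1:**
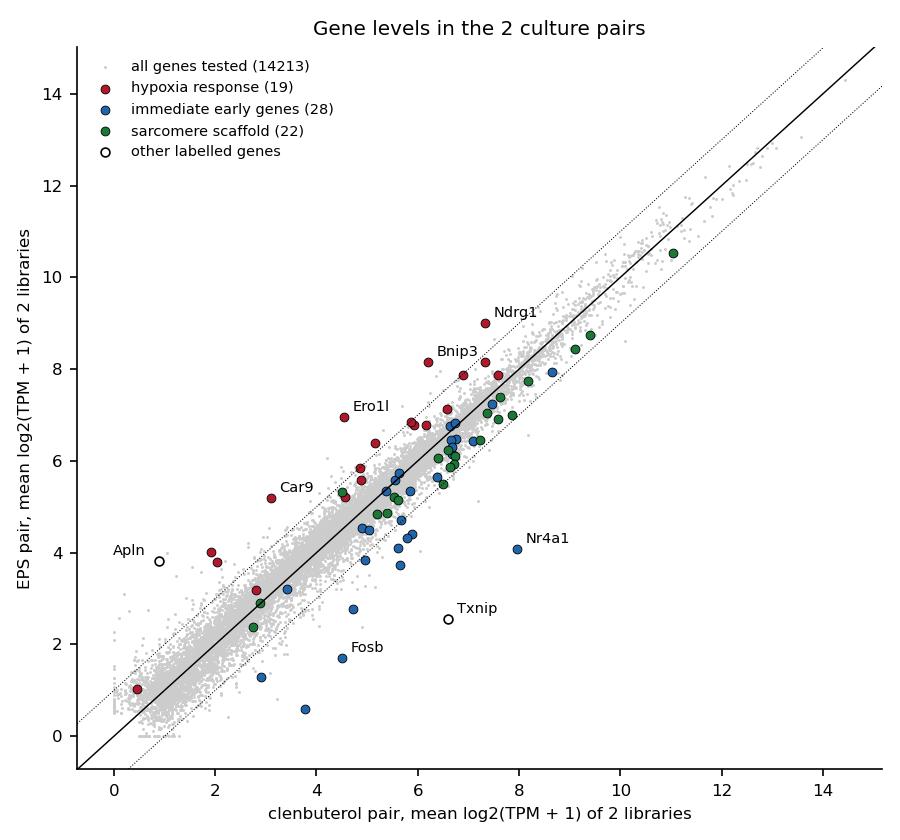
Mean log2(TPM + 1) of the 2 libraries of the EPS pair (vertical axis) against that of the clenbuterol pair (horizontal axis) for the 14213 genes compared. The solid line marks equal levels and the dotted lines a 2-fold difference in TPM + 1; coloured points are members of 3 gene lists. The 19 hypoxia genes lie above the solid line and most of the 28 immediate early genes below it.

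Most genes with a 2-fold gap were close within both pairs. Of the 50 genes with a 2-fold gap toward the EPS pair, 41 differed by less than 1.5-fold in TPM + 1 within both pairs, and of the 29 toward the clenbuterol pair 17 did. Of the 50 genes 8 differed by 1.5-fold or more within the EPS pair and 1 within the clenbuterol pair, and of the 29 genes 5 and 9 did.

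Toward the EPS pair the widest gap belonged to Apln (chrX:48025146-48034853 in mm10), which encodes the secreted peptide apelin. Its TPM was 12.8, 13.3, 0.913 and 0.799, so both clenbuterol pair values were below 1 and both EPS pair values above 12 (log2 fold change 3.87 ± 0.16 (SE), edgeR adjusted p = 0.0029). Fold changes from edgeR are given as EPS pair over clenbuterol pair, so that a negative value means higher in the clenbuterol pair. Each SE was worked out from the fold change and the F statistic of the test. It does not measure a spread over replicates of a condition. Ero1l (chr14:45283087-45318572), the oxidase that drives disulfide formation in the endoplasmic reticulum, had a TPM of 129.6, 118, 21.8 and 22.7 (log2 fold change 2.43 ± 0.08 (SE), edgeR adjusted p = 0.002). The 2 libraries of each pair lay close together for Ero1l, and the lowest EPS pair value of TPM + 1 was 5-fold above the highest of the clenbuterol pair. Ak4, a mitochondrial adenylate kinase, measured 13.3, 10.7, 1.88 and 1.95 TPM (log2 fold change 2.63 ± 0.16 (SE), edgeR adjusted p = 0.0081). Gpr35, a G protein-coupled receptor, measured 11.6, 9.2, 1.31 and 1.39 TPM (log2 fold change 2.73 ± 0.19 (SE), edgeR adjusted p = 0.012). Both genes were above 9 TPM in the EPS pair only, and by the rule that named them their pairs did not overlap. The membrane carbonic anhydrases Car9 and Car12, which hydrate carbon dioxide at the cell surface, moved the same way. Car9 had a TPM of 37.999, 32.98, 7.61 and 7.5 (log2 fold change 2.19 ± 0.11 (SE), edgeR adjusted p = 0.0068). Car12 had a TPM of 6.17, 5.36, 0.478 and 0.706 (log2 fold change 2.76 ± 0.24 (SE), edgeR adjusted p = 0.017).

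The other genes among the 15 widest gaps toward the EPS pair were Bnip3, Ankrd37, Trib3, Kif21b, Itm2a, Aldh1l2, Cthrc1, Ciart and Ndrg1, all called by edgeR. Aldh1l2, a mitochondrial enzyme of folate metabolism, had a TPM of 56.6, 58.95, 22.01 and 20.9 (log2 fold change 1.39 ± 0.07 (SE), edgeR adjusted p = 0.0068). Kif21b, a kinesin, had a TPM of 12.5, 10.8, 3.14 and 3.5 (log2 fold change 1.77 ± 0.12 (SE), edgeR adjusted p = 0.0098). Cthrc1, a secreted protein of the matrix, had a TPM of 15.2, 20.3, 5.08 and 5.51, with the library named EPSCtrl highest (log2 fold change 1.73 ± 0.21 (SE), edgeR adjusted p = 0.023). By the rule that named them, the pairs did not overlap for any of these 3 genes. The membrane protein gene Itm2a was low in all libraries, with a TPM of 5.27, 4.47, 1.13 and 1.07 (log2 fold change 2.10 ± 0.24 (SE), edgeR adjusted p = 0.021). Ciart, a repressor of the circadian clock, had a TPM of 10.8, 9.5, 3.21 and 3.54 (log2 fold change 1.48 ± 0.18 (SE), edgeR adjusted p = 0.023).

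Toward the clenbuterol pair the widest gap, and the widest of all genes named by gap, was that of Txnip (chr3:96557957-96561857). Its TPM was 5.75, 4.12, 98.4 and 93.7, and the lowest clenbuterol pair value of TPM + 1 was 14-fold above the highest of the EPS pair (log2 fold change -4.32 ± 0.15 (SE), edgeR adjusted p = 0.002). The clenbuterol control and the clenbuterol library hardly differed for Txnip, unlike for Nr4a1 and Fosb. Nr4a1 (chr15:101253902-101274795), an orphan nuclear receptor of the immediate early class, had a TPM of 19.7, 12.8, 97.4 and 629, the clenbuterol library being far above its control and the control above both EPS pair libraries (log2 fold change -4.43 ± 0.91 (SE), edgeR adjusted p = 0.0469). Fosb (chr7:19302696-19310118), a subunit of the AP-1 factor, had a TPM of 2.81, 1.8, 16.1 and 29.5 (log2 fold change -3.36 ± 0.37 (SE), edgeR adjusted p = 0.02). Txnip, Apln and Ero1l were the genes named by gap whose call held in all 11 alternative fits, counting those that leave out a library. Of the 27 genes called among the 30 named by gap, 3 were still called without the clenbuterol library, 16 without its control, and 26 without either library of the EPS pair.

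Noct, which encodes the rhythmically expressed protein nocturnin, had a TPM of 11.2, 9.79, 31.4 and 31.9 (log2 fold change -1.62 ± 0.10 (SE), edgeR adjusted p = 0.0081). Galnt6, an enzyme of O-linked glycosylation, had a TPM of 1.98, 3.04, 8.82 and 9.73 (log2 fold change -1.92 ± 0.22 (SE), edgeR adjusted p = 0.021). Mrln, which encodes the micropeptide myoregulin, an inhibitor of the calcium pump of the sarcoplasmic reticulum, had a TPM of 8.25, 8.23, 20.5 and 22.4 (log2 fold change -1.41 ± 0.20 (SE), edgeR adjusted p = 0.026). For Noct and Mrln both libraries of each pair were close together, whereas Galnt6 differed within the EPS pair. The pairs of all 3 did not overlap, which the rule that named them requires. Errfi1, a feedback inhibitor of the epidermal growth factor receptor, had a TPM of 26.7, 43.4, 103 and 202 (log2 fold change -2.16 ± 0.39 (SE), edgeR adjusted p = 0.037). Gpr20, a G protein-coupled receptor, and Aldh3b2, an aldehyde dehydrogenase, were also called. Gpr20 had a TPM of 10.2, 8.33, 25.5 and 24.7 (log2 fold change -1.42 ± 0.11 (SE), edgeR adjusted p = 0.013). Aldh3b2 had a TPM of 2.68, 2.95, 8.34 and 7.77 (log2 fold change -1.55 ± 0.17 (SE), edgeR adjusted p = 0.02). Of the 15 genes with the widest gaps on this side, Scml4, Hey1 and Nr4a3 were separated but not called. All 3 were called with treatment by title as a further term, and Hey1 and Nr4a3 also by DESeq2. Scml4, a gene of the polycomb group, had a TPM of 5.74, 12.5, 33.5 and 35.9, the library named EPSCtrl being well above the one named EPS (edgeR adjusted p = 0.10).

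**Figure D2:**
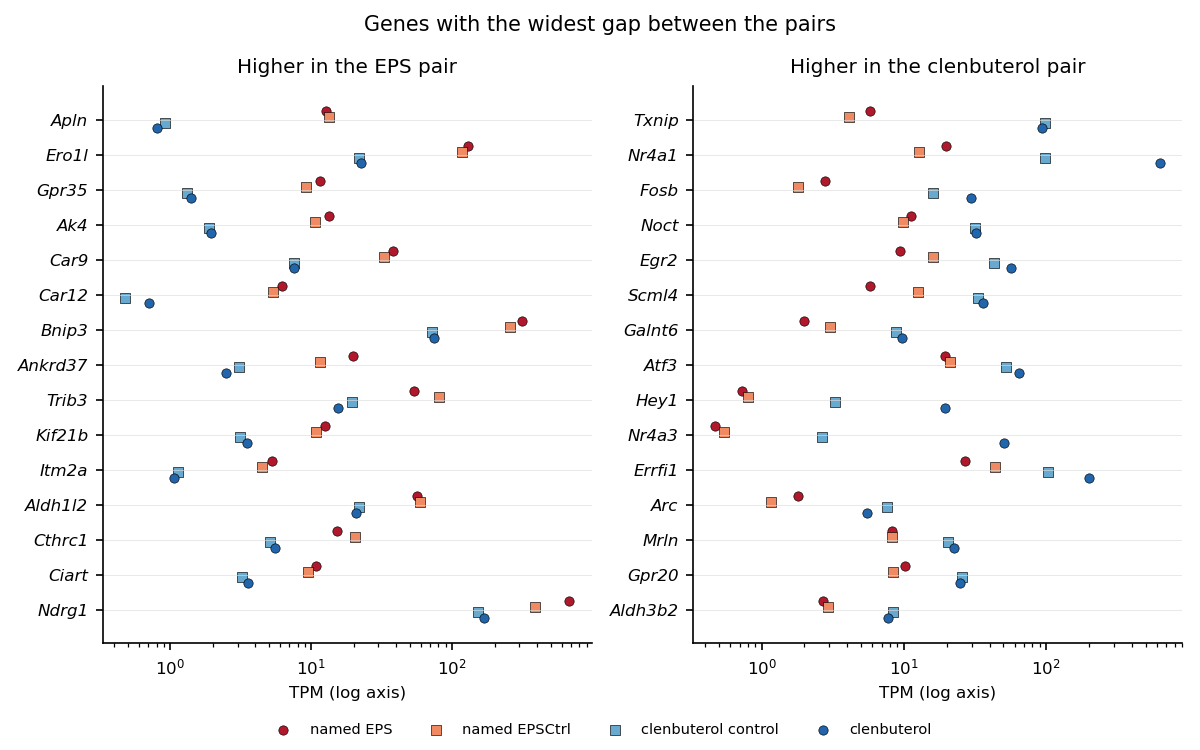
TPM on a log axis in each of the 4 libraries for the 15 genes with the widest gap toward the EPS pair (left) and the 15 toward the clenbuterol pair (right), widest gap at the top. Circles and squares are single libraries; for Txnip both clenbuterol pair values are above 93 TPM and both EPS pair values below 6.

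Most genes of the hypoxia response were higher in the EPS pair. Of 19 members, all of them expressed at a TPM of 1 or more, 15 were separated toward the EPS pair and 0 toward the clenbuterol pair, 6 of them by at least 2-fold, and edgeR called 12 higher in the EPS pair and 0 lower. The median log2 difference was 0.98, against 0.04 over all genes, where 34.7% of genes were separated and 4.06% called that way. Within the EPS pair the library named EPS was higher by a median of 0.35, and within the clenbuterol pair the 2 libraries differed by a median of 0.04. Leaving out any 1 library moved the list's median between 0.86 and 1.05.

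By role, the mitophagy receptors come first. Bnip3 (chr7:138890836-138909506), which carries 4 HIF core places in the window above, had a TPM of 312, 259, 71.6 and 74.6 (log2 fold change 1.92 ± 0.10 (SE), edgeR adjusted p = 0.0068). Its relative Bnip3l had a TPM of 139.9, 139.7, 93.2 and 96.1, the smallest change among the called members (log2 fold change 0.52 ± 0.07 (SE), edgeR adjusted p = 0.024). Neither gene's pairs overlapped, but the gap of Bnip3 was 3.44-fold on the TPM + 1 scale. The oxygen sensors are themselves targets. Egln1, the prolyl hydroxylase that marks HIF in normal oxygen, had a TPM of 128, 101, 56.9 and 57.7 (log2 fold change 0.96 ± 0.12 (SE), edgeR adjusted p = 0.023). Egln3, another member of that family, had a TPM of 123, 95.9, 71.2 and 69.2 (log2 fold change 0.60 ± 0.12 (SE), edgeR adjusted p = 0.044). Both were lowest in the clenbuterol pair.

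Pdk1, the kinase that keeps pyruvate out of the mitochondrion, had a TPM of 85.98, 79.5, 34.8 and 34.4 (log2 fold change 1.22 ± 0.07 (SE), edgeR adjusted p = 0.0081). The collagen prolyl hydroxylase subunits P4ha1 and P4ha2, which mature collagen, followed. P4ha1 had a TPM of 277, 289, 152 and 167 (log2 fold change 0.79 ± 0.09 (SE), edgeR adjusted p = 0.02). P4ha2 had a TPM of 244, 226, 118 and 118 (log2 fold change 0.96 ± 0.07 (SE), edgeR adjusted p = 0.013). For all of these, values within a pair differed far less than values between pairs. Ndrg1, a stress-induced gene of growth arrest, had a TPM of 679.7, 389, 152 and 169, with the library named EPS well above the one named EPSCtrl (log2 fold change 1.69 ± 0.25 (SE), edgeR adjusted p = 0.027). Ankrd37 had a TPM of 19.7, 11.5, 3.1 and 2.5 with the same order within the EPS pair (log2 fold change 2.41 ± 0.34 (SE), edgeR adjusted p = 0.026). Higd1a, a mitochondrial inner membrane protein, had a TPM of 107, 110.2, 60.3 and 59.2 (log2 fold change 0.82 ± 0.07 (SE), edgeR adjusted p = 0.017).

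The 7 members that were not called fell into 3 that were separated and 4 that overlapped. Adm, which encodes the vasodilator peptide adrenomedullin, had a TPM of 21.3, 7.67, 2.09 and 4.47, with a wide spread inside both pairs (edgeR adjusted p = 0.083). The demethylase gene Kdm3a had a TPM of 56.5, 39.1, 29.7 and 27.2 and the MYC antagonist gene Mxi1 of 43.1, 30.001, 21.1 and 24.5 (edgeR adjusted p = 0.059 and 0.089). The members that overlapped were Ddit4, Selenbp1, Stc2 and Vegfa. Vegfa, the main angiogenic growth factor, had a TPM of 238, 229, 127 and 288, so that the highest and the lowest values both belonged to the clenbuterol pair (log2 fold change 0.11 ± 0.36 (SE), edgeR adjusted p = 0.87). Ddit4, an inhibitor of the growth kinase mTORC1, had a TPM of 72.6, 44.2, 11.96 and 64.8 with the clenbuterol control far below the other 3 libraries (log2 fold change 0.55 ± 0.71 (SE), edgeR adjusted p = 0.66).

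Glycolysis leaned the same way as the hypoxia list, while at 3 steps the muscle isoenzyme went the other way. Of 21 genes, 13 were separated toward the EPS pair and 5 toward the clenbuterol pair, and edgeR called 8 and 3, with a median log2 difference of 0.39. The entry step, the glucose transporter Slc2a1, had a TPM of 317, 165, 77.8 and 84.6 (log2 fold change 1.53 ± 0.29 (SE), edgeR adjusted p = 0.041). Slc2a3, a transporter barely expressed here, had a TPM of 2.73, 1.1, 0.343 and 0.485 (log2 fold change 2.00 ± 0.42 (SE), edgeR adjusted p = 0.0491). Slc2a4, the insulin-regulated transporter of muscle, was low, with a TPM of 0.68, 0.423, 1.18 and 1.23 (edgeR adjusted p = 0.096). For Slc2a1 the library named EPS was well above the one named EPSCtrl, which was in turn above both clenbuterol pair libraries.

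At 3 steps of the pathway a general and a muscle isoenzyme went opposite ways. At phosphofructokinase, the liver form Pfkl had a TPM of 194, 160.2, 74.1 and 75.3 (log2 fold change 1.24 ± 0.10 (SE), edgeR adjusted p = 0.014). The muscle form Pfkm had a TPM of 313, 257, 485 and 490.1 (log2 fold change -0.81 ± 0.10 (SE), edgeR adjusted p = 0.023). Pfkm exceeded Pfkl in every library, by a wider margin in the clenbuterol pair. At phosphoglycerate mutase, the general form Pgam1 had a TPM of 695, 617, 323 and 338 (log2 fold change 0.95 ± 0.08 (SE), edgeR adjusted p = 0.017). The muscle form Pgam2 had a TPM of 79.4, 55.5, 124 and 122 (log2 fold change -0.91 ± 0.16 (SE), edgeR adjusted p = 0.037). At enolase, Eno1 had a TPM of 1836, 1930.2, 996 and 1044 (log2 fold change 0.84 ± 0.08 (SE), edgeR adjusted p = 0.017). The muscle form Eno3 had a TPM of 1498, 1603, 2101 and 2071 (log2 fold change -0.46 ± 0.08 (SE), edgeR adjusted p = 0.033). In the EPS pair Eno1 stood above Eno3 and in the clenbuterol pair Eno3 stood above Eno1. Other called members were Pgk1, with a TPM of 1274, 1322, 729 and 735, Ldha, with 1727, 1649, 1078 and 1087, and Tpi1, with 1504, 1417, 1068 and 1069. A further 3 genes overlapped between the pairs.

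**Figure D3:**
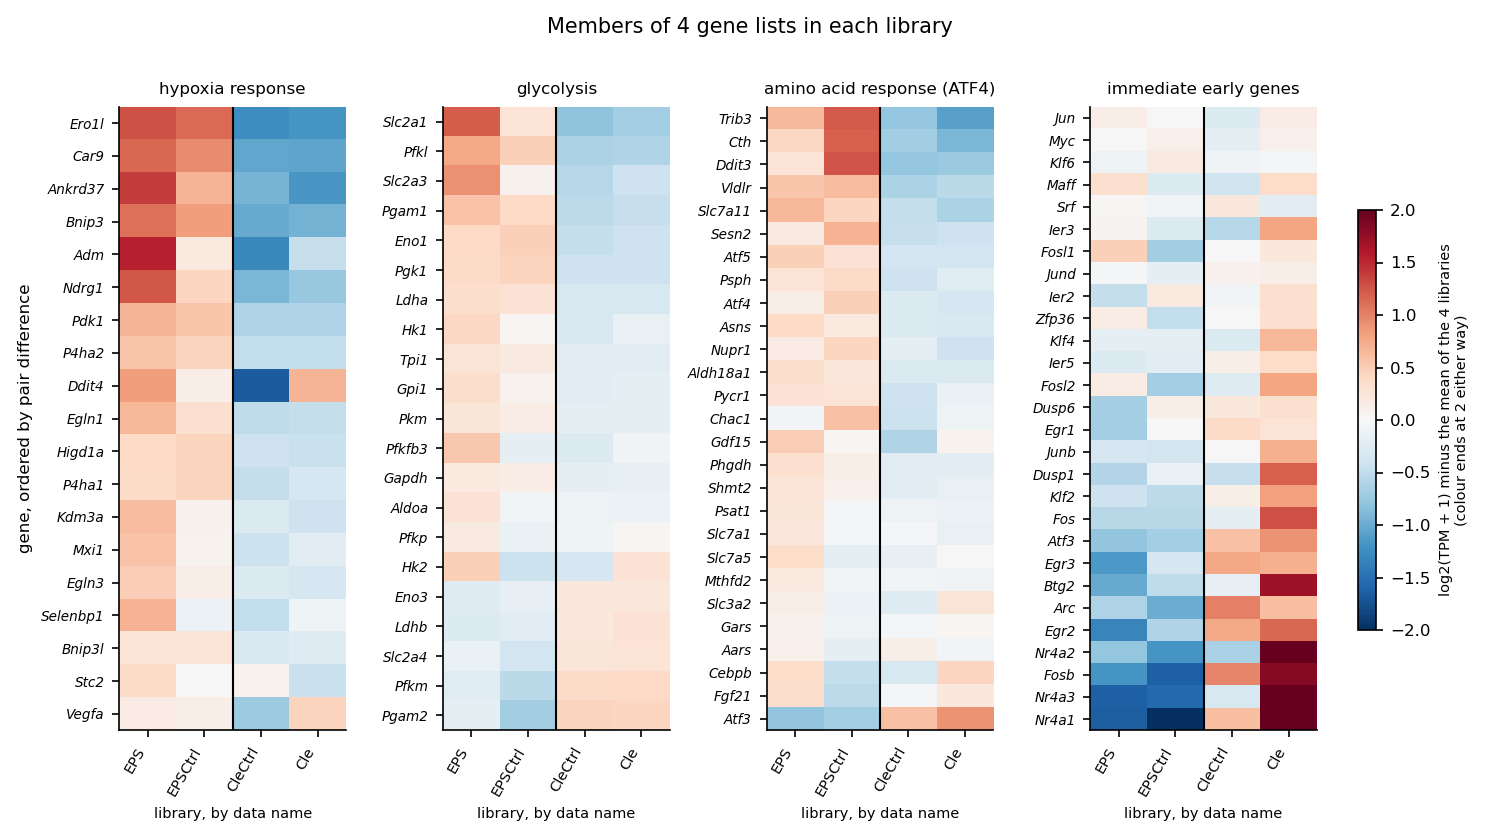
Level of each member of 4 gene lists in each library, as log2(TPM + 1) minus the mean of the 4 libraries; the black line divides the EPS pair (left) from the clenbuterol pair (right) and genes are ordered by the pair difference. Of the 19 hypoxia genes 15 are higher in both EPS pair libraries than in either library of the clenbuterol pair, while Nr4a1 and Nr4a3 are far higher in the clenbuterol library than in its control.

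The amino acid response driven by ATF4 was higher in the EPS pair for most members. Of 27 measured genes, 19 were separated toward the EPS pair and 1 toward the clenbuterol pair, with edgeR calls of 10 and 1 and a median log2 difference of 0.53. The library named EPSCtrl was the highest of the 4 for several of the stress regulators. Trib3, a pseudokinase that restrains the response, had a TPM of 53.8, 81.2, 19.5 and 15.5 (log2 fold change 1.91 ± 0.23 (SE), edgeR adjusted p = 0.023). Ddit3, the stress factor also called CHOP, had a TPM of 104, 206, 49.7 and 50.9 (log2 fold change 1.62 ± 0.34 (SE), edgeR adjusted p = 0.048). Cth, which makes cysteine from cystathionine, had a TPM of 5.18, 9.61, 1.88 and 1.48 (log2 fold change 2.08 ± 0.36 (SE), edgeR adjusted p = 0.036). All 3 were separated, and all 3 were higher in the library named EPSCtrl than in the one named EPS.

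Asns, asparagine synthetase, had a TPM of 182, 158, 114 and 111 (log2 fold change 0.56 ± 0.08 (SE), edgeR adjusted p = 0.027). Slc7a11, the cystine transporter, had a TPM of 2.41, 1.91, 0.55 and 0.39 (log2 fold change 2.15 ± 0.23 (SE), edgeR adjusted p = 0.02). The remaining calls toward the EPS pair were Vldlr, Atf5, Psph, Aldh18a1 and Phgdh. Atf4 itself was separated, with a TPM of 574, 724, 429.9 and 414, and missed the threshold (edgeR adjusted p = 0.0532). The single gene on the other side was Atf3, which belongs to the immediate early genes as well, with a TPM of 19.4, 21.02, 51.8 and 64.97 (log2 fold change -1.57 ± 0.14 (SE), edgeR adjusted p = 0.017). The pairs overlapped for 7 genes, among them Fgf21, a secreted stress hormone with a TPM of 70.05, 37.6, 53.3 and 63.6.

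Protein folding in the endoplasmic reticulum lay on the same side. Of 18 genes, 16 were separated toward the EPS pair and 0 toward the clenbuterol pair, 7 were called, and the median log2 difference was 0.32. Sdf2l1, a cofactor of the chaperone BiP, had a TPM of 60.1, 47.1, 26.04 and 23.2 (log2 fold change 1.08 ± 0.14 (SE), edgeR adjusted p = 0.024). Hspa5, which encodes BiP, had a TPM of 1187, 1460.3, 820.5 and 863 (log2 fold change 0.61 ± 0.12 (SE), edgeR adjusted p = 0.0465). Hsp90b1, the resident HSP90, had a TPM of 929, 1008, 589 and 606 (log2 fold change 0.66 ± 0.08 (SE), edgeR adjusted p = 0.024). The other calls were Pdia4, Edem1, Creld2 and Syvn1. Xbp1, the transcription factor of the unfolded protein response, was not separated, with a TPM of 167, 188, 175 and 177.

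Collagens were higher in the EPS pair by a median log2 difference of 0.57. Of 19 genes, 15 were separated toward the EPS pair and 1 toward the clenbuterol pair, and edgeR called 9 and 0. The fibrillar chains Col1a1 and Col1a2 carry the bulk of type I collagen. Col1a1 had a TPM of 1164, 1198, 573 and 642 (log2 fold change 0.92 ± 0.09 (SE), edgeR adjusted p = 0.019). Col1a2 had a TPM of 1425, 1468, 788 and 880.5 (log2 fold change 0.75 ± 0.09 (SE), edgeR adjusted p = 0.023). In both, the EPS pair libraries lay close together and the pairs did not overlap. Col6a3, a chain of the beaded filaments around muscle fibres, showed the widest gap of the list with a TPM of 111, 91.4, 37.8 and 39.7 (log2 fold change 1.35 ± 0.10 (SE), edgeR adjusted p = 0.014). Col18a1, the source of endostatin, had a TPM of 69.8, 68.4, 33.97 and 36.1 (log2 fold change 0.92 ± 0.07 (SE), edgeR adjusted p = 0.013). The others called were Col5a1, Col5a2, Col5a3, Col6a1 and Col16a1. The one chain on the other side, Col7a1, was low, with a TPM of 2.71, 3.01, 3.59 and 4.03 (edgeR adjusted p = 0.09).

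Matrix glycoproteins and remodelling enzymes divided 14 to 3 in separated genes of 21 and 8 to 2 in edgeR calls, with a median log2 difference of 0.28. Lox, the enzyme that crosslinks collagen and a known HIF target, had a TPM of 905, 703, 458 and 406 (log2 fold change 0.86 ± 0.13 (SE), edgeR adjusted p = 0.028). Vcan, a large proteoglycan, had a TPM of 196, 233, 131 and 142 (log2 fold change 0.61 ± 0.11 (SE), edgeR adjusted p = 0.037). Sparc, a collagen-binding protein, had a TPM of 4631, 4649, 3189 and 3354 (log2 fold change 0.45 ± 0.08 (SE), edgeR adjusted p = 0.038). The calls on the other side were Timp2 and Igfbp5. Timp2, an inhibitor of matrix proteases, had a TPM of 971, 818, 1265 and 1267 (log2 fold change -0.54 ± 0.09 (SE), edgeR adjusted p = 0.036). Igfbp5, a binding protein of insulin-like growth factors that rises as myoblasts differentiate, had a TPM of 272, 290.2, 415 and 434 (log2 fold change -0.63 ± 0.08 (SE), edgeR adjusted p = 0.024). Fibroblast markers, 5 genes of which 3 were detected and 1 was at 0 in all libraries, had summed TPM of 3035, 2434, 1770 and 1902. Nearly all of that sum was Col3a1, a member of the collagen list, and the part of such cells in the matrix result was not tested.

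Genes controlled by YAP and SRF split evenly. Of 16 genes, 7 were separated each way, and edgeR called 3 toward the EPS pair and 2 toward the clenbuterol pair. The 3 were contractile genes typical of smooth muscle. Cnn1, calponin, had a TPM of 12.9, 20.8, 5.57 and 4.94 (log2 fold change 1.63 ± 0.26 (SE), edgeR adjusted p = 0.031). Tagln, transgelin, had a TPM of 667, 885, 452 and 401 (log2 fold change 0.83 ± 0.16 (SE), edgeR adjusted p = 0.041). Actg2, an enteric actin, had a TPM of 209.6, 237, 125 and 97.3 (log2 fold change 0.97 ± 0.14 (SE), edgeR adjusted p = 0.025). On the clenbuterol side Ankrd1, a stretch-responsive nuclear protein of muscle, had a TPM of 1835, 2013, 2985 and 2957 (log2 fold change -0.67 ± 0.09 (SE), edgeR adjusted p = 0.024). Ccn2, a matricellular protein, was separated with a TPM of 267, 576, 1081 and 1085, and the library named EPS lay far below the one named EPSCtrl (edgeR adjusted p = 0.067). The summed TPM of 4 smooth muscle markers, mostly Acta2, was 2416, 2793, 1965 and 1850. That sum includes Cnn1, a called gene above, and is not a separate measure. Its part in this result was not tested.

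Cell cycle genes were higher in the EPS pair by a modest and even amount. Of 31 genes, 28 were separated toward the EPS pair and 1 toward the clenbuterol pair, edgeR called 12 and 0, and the median log2 difference was 0.47. The calls included genes of mitosis and 1 cyclin of the start of replication, Ccne2. Ccne2 had a TPM of 6.18, 6.1, 3.76 and 3.2 (log2 fold change 0.77 ± 0.16 (SE), edgeR adjusted p = 0.0494). Its paralogue Ccne1 was the 1 gene separated toward the clenbuterol pair, with a TPM of 8.3, 9.03, 9.15 and 9.27 (edgeR adjusted p = 0.61). Cdc20, the activator of the anaphase-promoting complex, had a TPM of 74.4, 79.7, 46.6 and 45.5 (log2 fold change 0.70 ± 0.09 (SE), edgeR adjusted p = 0.023). Aurka, a spindle kinase, had a TPM of 32.3, 34.1, 20.9 and 18.4 (log2 fold change 0.71 ± 0.10 (SE), edgeR adjusted p = 0.026). Top2a, the topoisomerase of dividing cells, had a TPM of 98.05, 106, 70.1 and 67.3 (log2 fold change 0.53 ± 0.08 (SE), edgeR adjusted p = 0.028). The proliferation marker Mki67 had a TPM of 45.6, 49.4, 31.9 and 29.1 (log2 fold change 0.62 ± 0.09 (SE), edgeR adjusted p = 0.025). In the last 4 genes the library named EPSCtrl was somewhat above the one named EPS. The replication licensing gene Mcm4 was not separated, with a TPM of 27.8, 27.3, 28.5 and 27.5, and Pcna, the replication clamp, differed little, with 152, 167, 144 and 136. The cell cycle inhibitor Cdkn1a, which holds myotubes out of the cycle, was lower in the EPS pair with a TPM of 1179, 1132, 1818 and 1747 (log2 fold change -0.66 ± 0.07 (SE), edgeR adjusted p = 0.019). The 3 myoblast markers, mostly Myod1, summed to a TPM of 70.3, 79.1, 87.7 and 89.6, and the part of unfused cells in the cell cycle result was not tested.

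The replication-dependent histones went the other way from the cell cycle genes. Of 27 genes measured at a TPM of 1 or more, 18 were separated toward the clenbuterol pair and 1 toward the EPS pair, 4 and 0 were called, and the median log2 difference was -0.54. On TMM-scaled CPM, which is not corrected for length, the median was -0.33. H1f2, a linker histone, had a TPM of 215, 255, 444 and 480.4 (log2 fold change -1.02 ± 0.11 (SE), edgeR adjusted p = 0.021). H2bc4 had a TPM of 213, 242, 326 and 333 (log2 fold change -0.57 ± 0.09 (SE), edgeR adjusted p = 0.031). H4c9 had a TPM of 30.9, 37.7, 68.96 and 70.5 (log2 fold change -1.06 ± 0.16 (SE), edgeR adjusted p = 0.028). H1f3 was the fourth call. The pairs did not overlap for any of these 4 genes. Canonical histone transcripts lack a poly(A) tail, and the libraries were made from poly(A) RNA. Many histone genes are near-identical copies, and how the deposited counts shared reads among them is not given in the sources used here.

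Cholesterol synthesis was higher in the EPS pair in the greater part of its genes. Of 24 genes, 17 were separated toward the EPS pair and 4 toward the clenbuterol pair, with 6 and 0 called and a median log2 difference of 0.26. Hmgcs1, which makes HMG-CoA for the pathway, had a TPM of 344, 348, 221 and 216 (log2 fold change 0.61 ± 0.07 (SE), edgeR adjusted p = 0.021). Lss, which closes the sterol rings, had a TPM of 43.5, 47.2, 28.3 and 26.1 (log2 fold change 0.69 ± 0.09 (SE), edgeR adjusted p = 0.024). Stard4, a carrier of cholesterol, had a TPM of 28.8, 31.7, 19.1 and 16.8 (log2 fold change 0.71 ± 0.10 (SE), edgeR adjusted p = 0.026). Msmo1, Sqle and Sc5d were called too. Against the list, Dhcr7, the last reductase of the pathway, had a TPM of 93.7, 77.5, 115 and 115 (edgeR adjusted p = 0.076). Fatty acid synthesis had 10 of 12 genes separated toward the EPS pair, but edgeR called 0 in that direction, where 5 had an unadjusted p under 0.05, DESeq2 called 3 and limma 1. Its single call was Scd1, a desaturase, with a TPM of 518, 507, 626 and 663, higher in the clenbuterol pair (log2 fold change -0.37 ± 0.08 (SE), edgeR adjusted p = 0.0466).

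Fatty acid oxidation leaned toward the clenbuterol pair, with 13 of 19 genes separated that way and 2 the other way, 2 and 0 called, and a median log2 difference of -0.15. Among the calls was Ucp2, a mitochondrial carrier, with a TPM of 65.7, 76.1, 109 and 111. Pdk4, the pyruvate dehydrogenase kinase that rises in fasting, was separated the other way with a TPM of 28.8, 19.7, 18.9 and 15.7 (edgeR adjusted p = 0.19). Of 76 nuclear genes of the respiratory chain, 39 were separated toward the clenbuterol pair and 2 toward the EPS pair, with 2 and 0 called and a median of -0.09, which was -0.04 without the library named EPS. The 13 mitochondrially encoded genes had 8 separated toward the clenbuterol pair and 0 toward the EPS pair, with a median of -0.16. For them edgeR gave 0 calls, 3 at an unadjusted p under 0.05, where DESeq2 called 1 and limma 0. Without the library named EPS that median was -0.05 and without the library named EPSCtrl -0.25. The 2 nuclear calls were Cox8b, the muscle form of a cytochrome oxidase subunit, and Ndufb7, a subunit of complex I. Cox8b had a TPM of 41.3, 45.2, 72.8 and 72.2 (log2 fold change -0.78 ± 0.14 (SE), edgeR adjusted p = 0.036).

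Cytosolic ribosomal protein genes showed a small difference of the same sign nearly throughout. Of 80 genes, 76 were separated toward the EPS pair and 0 toward the clenbuterol pair, while edgeR called 1, and the median log2 difference was 0.23. DESeq2 called 12 and limma 3. The called gene was Rpl28, with a TPM of 969, 1015, 738 and 753 (log2 fold change 0.38 ± 0.08 (SE), edgeR adjusted p = 0.0466). Rplp0 had a TPM of 1965, 2107, 1550.0 and 1545 and missed the threshold (edgeR adjusted p = 0.0541). On TMM-scaled CPM the list's median was 0.18. Host genes of small nucleolar RNAs, whose spliced transcripts are often degraded in step with translation, had 11 of 15 separated toward the EPS pair, 0 toward the clenbuterol pair and 4 called, with a median of 0.51. Zfas1 had a TPM of 105, 105, 61.2 and 49.5 (log2 fold change 0.88 ± 0.12 (SE), edgeR adjusted p = 0.025). Snhg12 had a TPM of 46.6, 65.7, 28.4 and 26.1 (log2 fold change 1.01 ± 0.20 (SE), edgeR adjusted p = 0.0456). Gas5 and Snhg5 were the other calls.

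Among the lists, the immediate early genes held the most 2-fold gaps toward the clenbuterol pair. The fast, scaffold and calcium lists of muscle genes below had larger shares separated that way (80%, 72.7% and 78.9%, against 57.1%). Of 28 genes, 16 were separated toward the clenbuterol pair and 0 toward the EPS pair, 7 by at least 2-fold, and edgeR called 7 and 0. The background for that direction is 25.1% separated, 0.204% with a 2-fold gap and 3.98% called. The median log2 difference was -0.60, and the clenbuterol library was higher than its control by a median of 0.41, so the group also differed inside the pair. Without the clenbuterol library the median was -0.34, and without its control -0.97.

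The called genes differed in how the clenbuterol control compared. For Egr2, Egr3, Atf3 and Arc, the clenbuterol control lay near or above the clenbuterol library. Egr2, a zinc finger factor, had a TPM of 9.37, 15.99, 42.8 and 56.3 (edgeR adjusted p = 0.026). Egr3 had a TPM of 14.02, 25.3, 55.7 and 53.5 (log2 fold change -1.50 ± 0.27 (SE), edgeR adjusted p = 0.037). Arc, better known as a synaptic gene, had a TPM of 1.8, 1.16, 7.67 and 5.51 (log2 fold change -2.18 ± 0.27 (SE), edgeR adjusted p = 0.023). In all 3 the lowest clenbuterol pair value was above both EPS pair values. Ier5 was the remaining call besides Nr4a1 and Fosb. For a further set the clenbuterol library alone was far above the rest. Nr4a3 had a TPM of 0.474, 0.546, 2.66 and 50.5 (edgeR adjusted p = 0.07). Nr4a2 had a TPM of 6.83, 4.9, 7.53 and 81.1 (edgeR adjusted p = 0.13). Btg2, an antiproliferative gene, had a TPM of 13.4, 19.3, 24.7 and 92.2 (edgeR adjusted p = 0.11). These 3 were separated but not called. Fos had a TPM of 13.3, 13.4, 17.7 and 50.8, with the same pattern and no call (edgeR adjusted p = 0.12). Egr1, also separated and not called, had a TPM of 67.1, 109, 141 and 130.0, the clenbuterol library being no higher than its control (edgeR adjusted p = 0.13). Jun, which overlapped between the pairs, had a TPM of 112, 102, 84.5 and 114. A further 11 of the 28 genes overlapped.

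Of the 22 immediate early genes with a promoter window, 12 (54.5%) held the half-site TGACG on either strand, against 27.3% of all windows. That share describes the genes chosen for the list and is not a test of CREB in these libraries. The list of cyclic AMP and CREB targets shares Nr4a1, Nr4a2, Nr4a3, Fosb and 1 further gene with it. Of its 19 measured genes, 11 were separated toward the clenbuterol pair, 0 toward the EPS pair, and 4 were called. Its median log2 difference was -0.72, but the median distance inside the clenbuterol pair was 1.39, larger than the difference between the pairs. Without the clenbuterol library the median was -0.24 and without its control -1.71. Calls beyond the immediate early genes were Dio2 and Ppargc1a. Dio2, the deiodinase that activates thyroid hormone, had a TPM of 15.4, 11.6, 21.9 and 22.7, nearly equal in the clenbuterol control and the clenbuterol library (log2 fold change -0.77 ± 0.13 (SE), edgeR adjusted p = 0.036). Ppargc1a, the coactivator of mitochondrial genes, was low throughout, with a TPM of 0.256, 0.291, 0.633 and 1.69 (log2 fold change -1.77 ± 0.36 (SE), edgeR adjusted p = 0.0474). Rgs2 and Areg were separated with a high value in the clenbuterol library only. Rgs2 had a TPM of 0.357, 0.338, 0.912 and 10.97 (edgeR adjusted p = 0.094).

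Besides Txnip, the targets of the Mondo factors were few. Of 5 list members measured, Txnip included, 3 were separated toward the clenbuterol pair and 0 toward the EPS pair, and 2 were called. The list also counts Mlxip, itself a Mondo factor, which overlapped with a TPM of 15.4, 12.5, 13.2 and 12.1. Klf10, a zinc finger repressor, had a TPM of 55.9, 52.6, 119.9 and 79.7, here with the clenbuterol control highest (log2 fold change -0.92 ± 0.18 (SE), edgeR adjusted p = 0.0456). Arrdc3, an arrestin-like relative of Txnip, had a TPM of 17.6, 18.4, 24.3 and 33.4 (edgeR adjusted p = 0.06). Arrdc2, another such relative, overlapped between the pairs. In the promoter windows of 4 of these genes, 2 held CACGAG at least once, that of Txnip among them. Over all windows 7.12% held it at least once, and a share among listed genes is not a test of the Mondo factors in these libraries.

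Contractile and calcium-handling genes were higher in the clenbuterol pair, and of 69 genes in the fast, slow, scaffold and calcium lists the library named EPSCtrl was the lowest for 55. Of the 15 genes of fast contraction, 12 were separated toward the clenbuterol pair and 3 toward the EPS pair, with 7 and 1 called and a median log2 difference of -0.44. Of the 22 genes of the sarcomere scaffold, 16 and 1 were separated, 6 and 1 were called, and the median was -0.48. Of the 19 genes of calcium release and excitation, 15 and 1 were separated, 8 and 1 were called, and the median was -0.51. The 14 embryonic and cardiac sarcomere genes had a median of -0.48, with 9 and 1 separated and 5 and 0 called. For the 14 genes of slow contraction the median was -0.29, with 8 and 1 separated and 4 and 0 called.

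The EPS pair was itself spread: the library named EPS was higher than the one named EPSCtrl by a median of 0.22, 0.42 and 0.44 for the fast, slow and scaffold lists. This was larger than the difference between the pairs for the slow list, near it for the scaffold list and smaller for the fast list. Without the library named EPSCtrl the medians of the slow list and of the calcium list were -0.13 and -0.29, and without the library named EPS the slow list's was -0.46. The summed TPM of the myotube markers moved with these lists, at 11586 in the library named EPSCtrl against 15952 to 18101 in the other 3. Ttn and Tnnt3 are markers and also members of these lists, so the sum is not a separate measure. Its part in the muscle result was not tested.

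Atp2a1, the calcium pump of fast fibres, had a TPM of 267, 217, 428 and 440.4 (log2 fold change -0.88 ± 0.11 (SE), edgeR adjusted p = 0.023). Tnnt3, fast troponin T, had a TPM of 2702, 2503, 3699.7 and 3463 (log2 fold change -0.49 ± 0.08 (SE), edgeR adjusted p = 0.029). Mylpf, the fast regulatory light chain and one of the most abundant transcripts, had a TPM of 8328, 8769.9, 12276 and 11844 (log2 fold change -0.54 ± 0.08 (SE), edgeR adjusted p = 0.027). In these genes both EPS pair libraries lay below both of the others. The fast myosins Myh1 and Myh2, with the library named EPSCtrl lowest, were separated but not called. Myh1 had a TPM of 879, 609.7, 1219.5 and 1239 (edgeR adjusted p = 0.0501). Myl2, the slow light chain, had a TPM of 209, 135, 317 and 323 (log2 fold change -0.84 ± 0.13 (SE), edgeR adjusted p = 0.028). Tnnt1, slow troponin T, had a TPM of 756, 670.4, 1012 and 957 (log2 fold change -0.51 ± 0.08 (SE), edgeR adjusted p = 0.031).

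In the scaffold, Myom3, an M-band protein, showed the widest difference, with a TPM of 50.03, 38.96, 89.7 and 89.2 (log2 fold change -1.04 ± 0.12 (SE), edgeR adjusted p = 0.021). Klhl41, which stabilises thin filament proteins, had a TPM of 349, 339.6, 560.5 and 535 (log2 fold change -0.71 ± 0.07 (SE), edgeR adjusted p = 0.019). Unc45b, the chaperone of myosin, had a TPM of 64.7, 51.3, 98.7 and 98.9 (log2 fold change -0.81 ± 0.11 (SE), edgeR adjusted p = 0.025). These 3 were well separated. The giant proteins Ttn and Neb were separated and just missed the threshold. Ttn had a TPM of 72.9, 49.7, 101 and 108 (edgeR adjusted p = 0.0508). Neb had a TPM of 157, 103, 234 and 226 (edgeR adjusted p = 0.0501). A further 5 scaffold genes overlapped between the pairs.

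Among genes of excitation, Scn4a, the sodium channel of adult muscle, had a TPM of 17.8, 12.5, 25.8 and 26.9 (log2 fold change -0.84 ± 0.16 (SE), edgeR adjusted p = 0.042). Stac3, which couples the calcium channel to release, had a TPM of 41.9, 42.6, 62.4 and 59.2 (log2 fold change -0.57 ± 0.08 (SE), edgeR adjusted p = 0.027). Stac3 was close within each pair, whereas Scn4a was lower in the library named EPSCtrl. Cacng1, a subunit of that calcium channel, had a TPM of 429, 313, 621 and 573 (log2 fold change -0.73 ± 0.15 (SE), edgeR adjusted p = 0.045). Of the embryonic list, the acetylcholine receptor subunits Chrna1, Chrnd and Chrng were called as well. Chrna1 had a TPM of 820.0, 790.3, 1063 and 1028 (log2 fold change -0.42 ± 0.07 (SE), edgeR adjusted p = 0.033).

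The muscle genes called on the opposite side from their lists numbered 3. Casq1, the calcium-storing protein of fast fibres, had a TPM of 215, 179.8, 112 and 105 (log2 fold change 0.83 ± 0.10 (SE), edgeR adjusted p = 0.022). Xirp2, an actin-binding protein of intercalated discs and muscle junctions, had a TPM of 44.3, 34.6, 22.6 and 20.6 (log2 fold change 0.83 ± 0.12 (SE), edgeR adjusted p = 0.027). Asph, whose gene also encodes junctin, a partner of the release channel, had a TPM of 82.5, 73.1, 69.5 and 65.2 (log2 fold change 0.43 ± 0.07 (SE), edgeR adjusted p = 0.031). On the TPM + 1 scale the log2 difference of Asph was 0.20, smaller than the one from counts on which its call rests. In Casq1 and Xirp2 both EPS pair values were well above those of the clenbuterol pair, and in Asph they were just above them.

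**Figure D4:**
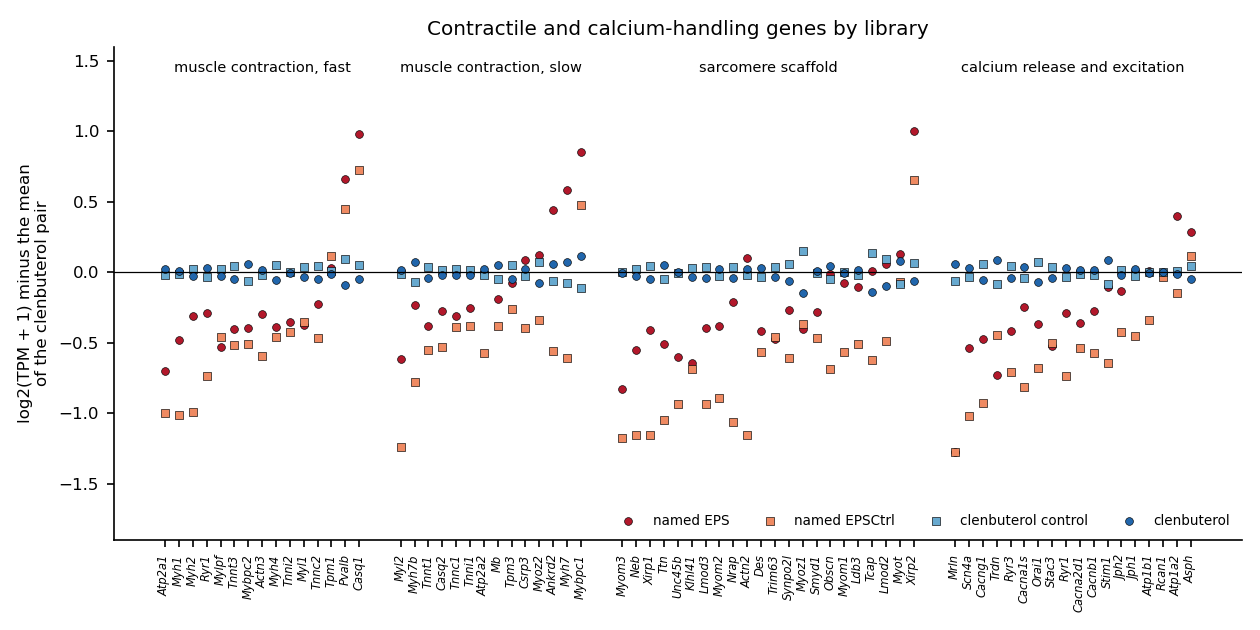
Contractile and calcium-handling genes in each library, as log2(TPM + 1) minus the mean of the clenbuterol pair, for 4 lists ordered by the pair difference. Points are single libraries; the library named EPSCtrl (orange squares) is the lowest for most genes, and Casq1 and Xirp2 stand above the zero line in both EPS pair libraries.

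Regulators of myogenesis leaned the same way, with 10 of 16 genes separated toward the clenbuterol pair, 2 toward the EPS pair, 5 and 0 called, and a median log2 difference of -0.27. Myog, the factor of terminal differentiation, had a TPM of 673, 599.9, 935 and 969 (log2 fold change -0.62 ± 0.08 (SE), edgeR adjusted p = 0.024). Mymk, the membrane protein that fuses myoblasts, had a TPM of 788, 582, 1131 and 1207 (log2 fold change -0.81 ± 0.14 (SE), edgeR adjusted p = 0.036). Mef2a, a partner of the myogenic factors, had a TPM of 87.7, 86.2, 127 and 126 (log2 fold change -0.49 ± 0.07 (SE), edgeR adjusted p = 0.025). Each of these separated the pairs. Mef2c and Itga7 were the other calls. Myf5, the factor of undifferentiated myoblasts, was separated toward the EPS pair with a TPM of 5.67, 7.76, 4.86 and 4.19 (edgeR adjusted p = 0.17).

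Genes of undifferentiated myoblasts and of Notch and BMP signalling had 7 of 15 genes separated toward the clenbuterol pair and 4 toward the EPS pair, with 1 call, Smad6, toward the EPS pair. Toward the clenbuterol pair edgeR called 0, where 6 had an unadjusted p under 0.05, DESeq2 called 5 and limma 0. Smad6, an inhibitor of BMP signalling, had a TPM of 3.51, 3.21, 1.78 and 1.39 (log2 fold change 1.00 ± 0.21 (SE), edgeR adjusted p = 0.0491). Id3, an inhibitor of myogenic factors, had a TPM of 13.6, 17.3, 35.9 and 116 (edgeR adjusted p = 0.062). Hey1, a Notch target, had a TPM of 0.727, 0.807, 3.29 and 19.4 (edgeR adjusted p = 0.06). Id1 had a TPM of 19.8, 36.6, 56.7 and 57.7 (edgeR adjusted p = 0.078). The clenbuterol library alone was high for Id3 and Hey1, and for Id1 the 2 clenbuterol pair libraries were alike. The list's median was -0.42, and -0.23 without the library named EPS.

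Insulin-like growth factor signalling held calls both ways, 2 toward the EPS pair and 5 toward the clenbuterol pair of 18 genes. Igf2, the growth factor that myoblasts secrete as they differentiate, had a TPM of 20.4, 18.7, 41.3 and 41.98 (log2 fold change -1.13 ± 0.08 (SE), edgeR adjusted p = 0.012). H19, the noncoding RNA next to Igf2, had a TPM of 3769, 3315, 4789 and 4755 (log2 fold change -0.47 ± 0.08 (SE), edgeR adjusted p = 0.037). Akt2, a kinase of the pathway, had a TPM of 115, 104, 158 and 159.8 (log2 fold change -0.51 ± 0.07 (SE), edgeR adjusted p = 0.027). Igf2 was about 2-fold apart with close values inside both pairs. Igfbp5 and Igfbp6 were also called that way. The adaptor Irs1 was called the other way, with a TPM of 34.7, 40.1, 22.9 and 18.1 (log2 fold change 0.83 ± 0.14 (SE), edgeR adjusted p = 0.032). Eif4ebp1, a repressor of translation, had a TPM of 319, 311, 220.4 and 206 (log2 fold change 0.52 ± 0.07 (SE), edgeR adjusted p = 0.024).

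Among 17 clock genes 6 were separated toward the EPS pair, near the share of 34.7% over all genes, and 2 toward the clenbuterol pair, and the calls were Ciart and Dbp. Dbp, an output factor of the clock, had a TPM of 14.8, 12.1, 5.83 and 6.62 (log2 fold change 1.04 ± 0.18 (SE), edgeR adjusted p = 0.034). Nr1d1, a core repressor, was separated with a TPM of 45.5, 24.4, 21.98 and 21.5 (edgeR adjusted p = 0.19). Per1, also a target of cyclic AMP, overlapped with a TPM of 21.1, 14.2, 14.97 and 72.5, the clenbuterol library alone being high.

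NRF2 targets and inflammatory genes varied more inside the EPS pair than between the pairs. The library named EPS was higher than the one named EPSCtrl by a median of 0.60 over 31 NRF2 targets, where the median difference between the pairs was 0.10. That difference was -0.13 without the library named EPS and 0.82 without the library named EPSCtrl. Of the 31 targets 10 (32.3%) were separated toward the EPS pair, near the 34.7% over all genes. Toward the clenbuterol pair 2 were separated, and the calls were 2 and 1. Over 23 inflammatory genes the 2 medians were 0.52 and 0.09, and the second was -0.31 without the library named EPS, -0.06 without the clenbuterol control and 0.26 without the clenbuterol library. Hmox1, haem oxygenase, had a TPM of 583, 105, 86.3 and 85.5, separated through a single high library (edgeR adjusted p = 0.15). Slc7a11 and Tkt, an enzyme of the pentose phosphate pathway, were called toward the EPS pair, and Osgin1, a stress-induced gene, toward the clenbuterol pair with a TPM of 63.2, 51.2, 102 and 161 (log2 fold change -1.24 ± 0.23 (SE), edgeR adjusted p = 0.039). Of 23 inflammatory genes, 4 were separated each way and 1 was called, Cxcl12, a chemokine made by mesenchymal cells. It had a TPM of 154, 154, 74.7 and 70.7, level within the EPS pair (log2 fold change 1.14 ± 0.07 (SE), edgeR adjusted p = 0.0081). Among 8 genes of iron handling 1 was called, the iron exporter Slc40a1, which had a TPM of 30.2, 39.3, 17.9 and 17.2 (log2 fold change 0.95 ± 0.15 (SE), edgeR adjusted p = 0.031).

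Zinc transporters were called in both directions. Slc30a1, the zinc exporter induced by free zinc, had a TPM of 6.27, 3.81, 15.7 and 13.1 (log2 fold change -1.56 ± 0.23 (SE), edgeR adjusted p = 0.027). Slc39a10, a zinc importer, had a TPM of 18.8, 24.4, 10.2 and 10.7 (log2 fold change 1.04 ± 0.17 (SE), edgeR adjusted p = 0.032). The zinc-binding metallothionein Mt1 overlapped between the pairs. It had a TPM of 512, 242, 553 and 478, the library named EPSCtrl being the low one. Among heat shock genes, the mitochondrial chaperonins Hspd1 and Hspe1 were called toward the EPS pair and the small chaperone Cryab toward the clenbuterol pair. Hspd1 had a TPM of 228, 219, 157 and 163 (log2 fold change 0.44 ± 0.07 (SE), edgeR adjusted p = 0.031). Cryab had a TPM of 1484, 1202, 2068 and 2021 (log2 fold change -0.63 ± 0.11 (SE), edgeR adjusted p = 0.037). The cold-inducible Cirbp had a TPM of 62.1, 67.9, 107 and 116, higher in the clenbuterol pair (log2 fold change -0.90 ± 0.12 (SE), edgeR adjusted p = 0.024). The paraspeckle RNA Neat1 had a TPM of 109.6, 80.7, 347 and 242, also higher there (log2 fold change -1.30 ± 0.21 (SE), edgeR adjusted p = 0.032).

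The remaining lists held few calls. Of 21 interferon response genes, 8 (38.1%) were separated toward the EPS pair and 5 (23.8%) toward the clenbuterol pair. Over all genes these shares were 34.7% and 25.1%, so the list stood near the background. MHC class I presentation genes had 6 and 0 of 8 separated, and edgeR called 0 in either list. At an unadjusted p under 0.05 these were 1 and 2 interferon genes and 0 of the MHC genes, DESeq2 called 1 and 1 interferon genes, and limma 0. The p53 targets had 7 of 19 (36.8%) separated each way and 1 call, Cdkn1a. Atrophy and autophagy genes had 6 and 8 of 21 separated (28.6% and 38.1%) and 2 and 1 called, Bnip3 among the former. The ubiquitin ligase Trim63, a marker of muscle atrophy, was the call toward the clenbuterol pair, with a TPM of 34.2, 34.6, 48.96 and 46.6 (log2 fold change -0.52 ± 0.08 (SE), edgeR adjusted p = 0.032). Foxo3, a factor that induces atrophy genes, was called toward the EPS pair with a TPM of 34.8, 24.5, 16.5 and 17.4 (log2 fold change 0.75 ± 0.16 (SE), edgeR adjusted p = 0.048). Glucocorticoid targets had 3 and 4 of 12 separated (25% and 33.3%) and 1 call each way, Fkbp5 toward the EPS pair and Cdkn1a toward the clenbuterol pair.

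**Figure D5:**
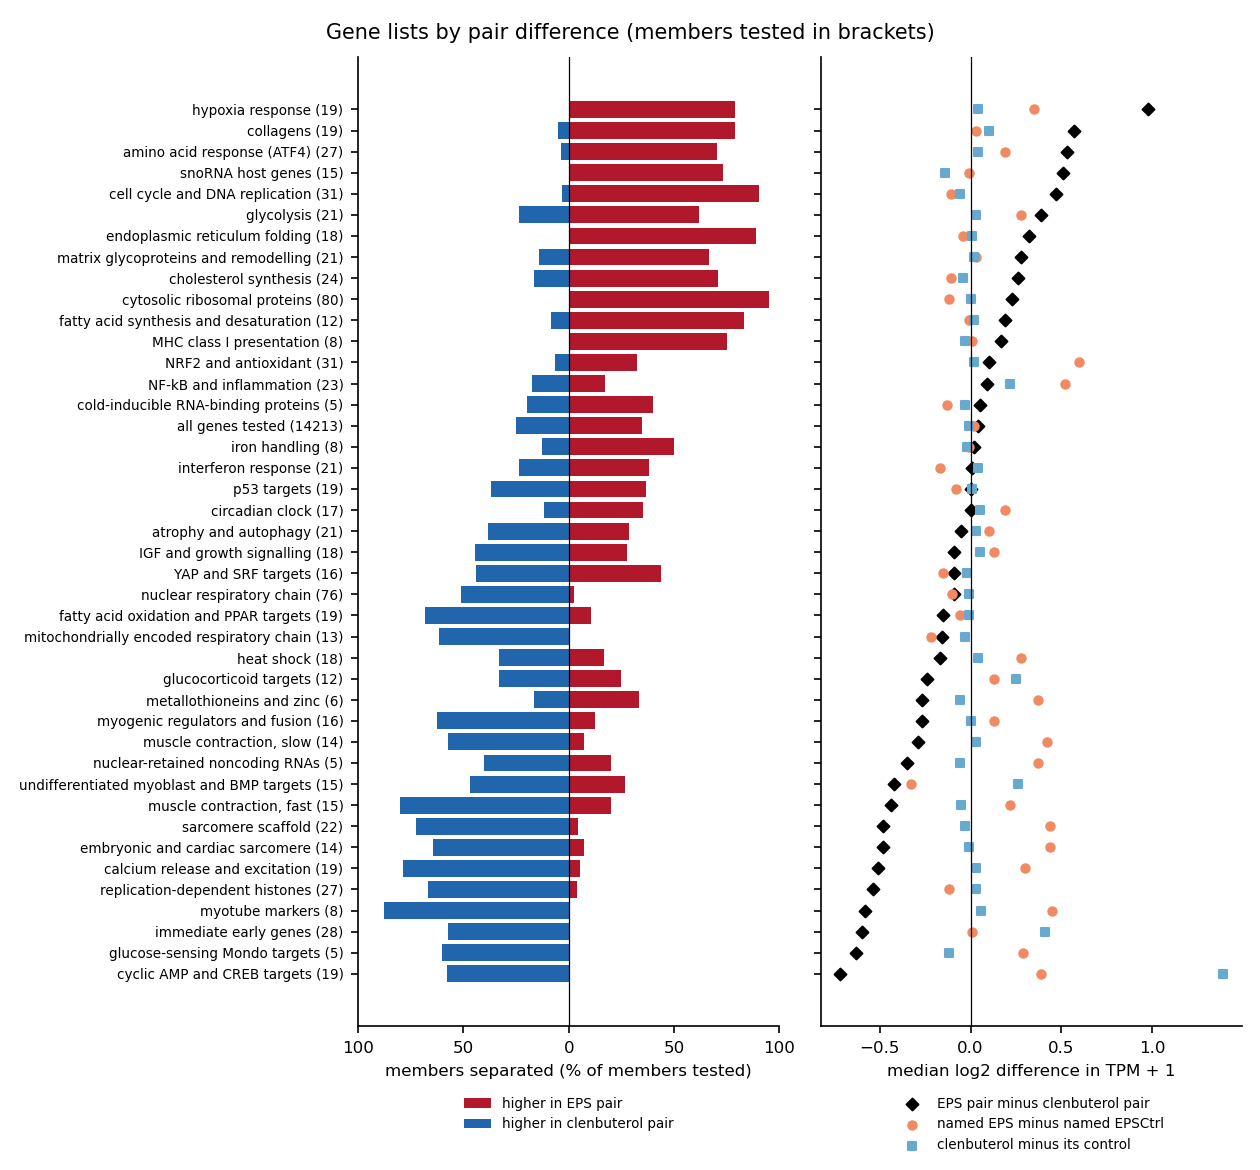
Left, percent of each list's tested members separated toward the EPS pair (red, right of zero) or the clenbuterol pair (blue, left of zero), for lists with at least 5 tested members. Right, median log2 difference in TPM + 1 between the pairs (diamonds) and within each pair (circles and squares); the hypoxia list is the highest at 0.98, and the cyclic AMP list has a within-pair median of 1.39 in the clenbuterol pair.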

How the data were processed

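Poly(A) RNA of 4 C2C12 myotube cultures was sequenced, and reads were aligned with HISAT2 to mm10, per the submitters' processing notes; no source used here states its version, the counting program, the annotation release or the strand setting. The authors deposited 1 joint table with estimated counts, FPKM and TPM of 45777 genes, and a table per library with coverage, FPKM and TPM. The joint and the single tables differed by more than 0.001 TPM for 1 to 3 genes per library. The deposited coverage values (mean depth per base) were not analysed further. Gene symbols that a spreadsheet had turned into dates (26) were restored from RefSeq gene IDs.

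The 14213 genes that reached a TPM of 1 in any library were compared, 2 libraries against 2. The gap is the lowest TPM + 1 of the higher pair over the highest of the lower pair, with a pseudocount of 1. Estimated counts, treated as such because the counting program is not stated, were tested with edgeR 4.0.16 (quasi-likelihood, TMM factors 0.9801 to 1.0179, residual df 2, Benjamini-Hochberg over all genes, threshold 0.05) in R 4.3.3. The code was first run on simulated counts with a spread common to all genes, which does not test the calls in these libraries. DESeq2 1.42.0, limma 3.58.1, other filters, units and pseudocounts, a treatment term and fits without 1 library were alternatives. A self-written search in Python 3.11.15 read the promoter windows.

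The culture pairs and the 50 gene lists (936 entries, 934 found, 34 by an older symbol) were chosen with earlier results of these data known. Genes were named as the 15 widest gaps each way at a TPM of at least 5 and up to 3 members at each end of a list; genes named beyond this rule were chosen after their values were seen. A few list members are counted with their lists but not reported here by name.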

Additional observations from a re-analysis of the deposited data

How the results depend on the processing

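The direction of the 30 genes named by gap held under every alternative fitted, while the number of calls depended on the setting. On deposited FPKM, genes with a 2-fold gap numbered 26 toward the EPS pair and 14 toward the clenbuterol pair, with a pseudocount of 0.1 they were 105 and 81, and with 5 they were 15 and 9. Without 1 library they ran from 82 to 156 and from 72 to 123, where fewer libraries must stand apart. Separated genes ran from 5948 to 6895 and from 4563 to 5383 for the same reason. The edgeR calls were 339 and 334 with no filter, 658 and 664 with treatment by title as a further term, 380 and 383 with treatment by data name, and 1019 and 1086 by DESeq2. By limma 475 and 319 genes were called. Leaving out 1 library gave 3 to 1112 and 1 to 1267 calls, the lowest without the clenbuterol library and the highest without the library named EPS, and a lone library is then assumed to vary like the other pair. Of the genes separated in TPM 58.1% were higher in the EPS pair, against 50.7% in TMM-scaled CPM. Neither the labels nor the columns give the pairs shared replicate numbers, so libraries could be matched across the pairs only as treated or control. The treatment terms above did this, setting each library against its counterpart in the other pair under either reading of the EPS names.

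Genes without a call could change sign when 1 library was left out. Their log2 fold changes ran from -0.21 to 2.25 for Ddit4, from -0.66 to 0.21 for Fgf21, from -0.15 to 0.31 for Jun, from -2.10 to 0.18 for Per1, from -0.41 to 0.11 for Tubb3, from -0.37 to 0.84 for Vegfa and from -0.13 to 0.07 for Xbp1, which limma put at 0.01. List medians that changed sign ran from -0.297 to 0.035 for heat shock, from -0.577 to 0.089 for metallothioneins and zinc, from -0.379 to 0.034 for glucocorticoid targets, from -0.219 to 0.008 for growth signalling, from -0.130 to 0.824 for NRF2 targets, from -0.311 to 0.263 for inflammation, from -0.133 to 0.171 for cold-inducible genes, from -0.128 to 0.055 for the clock and from -0.028 to 0.019 for p53 targets (0.045 with no filter). For iron handling they ran from -0.003 to 0.173, with -0.020 on CPM and -0.013 with no filter, and interferon genes had -0.010 and -0.042 there. The Mondo list's median was -0.41 without the clenbuterol library. The cause was not tested in any of these. With 1 library per treatment, no alternative separates culture from treatment.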

Other observations

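TPM and counts parted for a few genes. Of 12030 genes with at least 50 estimated counts in all 4 libraries, 26 had a ratio of TPM to CPM that varied by 2-fold or more over the libraries. The histone gene H2bc6 had the widest range, 4.51-fold, with a mean log2 shift of -1.35 in the EPS pair relative to the clenbuterol pair. Strbp varied by 4.36-fold with a mean shift of 0.00 between the pairs. These 26 genes were found after the data were examined.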
